A study of Mus musculus with 384 samples.

Results

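The comparison set progenitors of the embryonic mammary gland against the luminal cells of the adult gland, as 231 single mouse cells out of 384 wells of a sorted plate. Members were the wells whose title and sort label both name the gate, and they had to hold 50000 gene reads or more, 1500 detected genes or more, and mitochondrial transcripts for no more than 20% of reads. These limits left out 14 embryonic and 13 luminal wells. Each cell was a library made with Smart-seq2, a full-length protocol for single cells that primes on poly-A tails. The comparison addresses how far the embryonic cells, before the gland's lineages have separated, differed from one of the adult lineages, gene by gene, in level and in the share of cells with the transcript.

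The embryonic cells came from Lgr5-EGFP-IRES-CreER mice at embryonic day 14. The whole skin of females, with the mammary buds, was dissociated, and cells with high CD49f and a high Lgr5 reporter were sorted, so skin cells outside the buds that carry the reporter can enter this gate. The luminal cells came from adult glands of Rosa-tdTomato mice, sorted as CD24+CD29Lo. Cells with CD45, CD31 or CD140a (surface proteins of blood, vessel and mesenchymal cells) were excluded in both. Adult tissue was digested for longer and also met trypsin, the antibody panels differed, and the gates filled different rows of the plate. Age, genotype, tissue, dissociation and plate rows therefore cannot be told apart from the gate. No label names an animal or litter, so each gate is 1 sample: no difference below has a replicate check or a p-value, and all intervals are exact 95% intervals for counting error only. Reads amplified by PCR without molecular identifiers are not independent molecules. Levels are reads summed over the cells of a gate per 1000000 summed gene reads (CPM), or the same within 1 cell where a cell is named. Xist, the RNA that coats the inactive X chromosome, was at 2198 CPM in the embryonic and 1444 CPM in the luminal gate.

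As background, the mammary gland begins as placodes of the embryonic skin that sink into the mesenchyme as buds, under Wnt, FGF, ectodysplasin and parathyroid hormone-like signals. The adult gland is a bilayer. Its outer basal cells contract and carry keratins 5 and 14, and its inner luminal cells carry keratins 8 and 18 and include hormone-sensing cells, which hold oestrogen, progesterone and prolactin receptors, and secretory precursors, which make milk proteins. Embryonic progenitors are known for carrying markers of both layers at once.

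Kept embryonic cells had a median of 711721 gene reads (52687 to 1836609) and luminal cells 535276 (63571 to 1595858). After each cell was thinned at random to 50000 reads, embryonic cells had a median of 3957 detected genes and luminal cells 2606. The 100 most abundant genes took 20.7% of embryonic and 30.1% of luminal reads, and 1021 against 472 genes took 50% of them. Across 10315 genes, all but 1 embryonic and 2 luminal cells correlated best with the well of 50 cells of their own gate. At least 3 of 8 fibroblast markers (Col1a1, Col1a2, Col3a1, Dcn, Lum, Postn, Pdgfra and Twist2), each with 5 reads after thinning, were found in 22 embryonic cells (17.9%) and 1 luminal cell. The 23 embryonic cells with these markers or a best match to another gate, and the 2 luminal cells that matched another gate, are called cells in doubt below, beside 100 embryonic cells not in doubt, and results that rest on them are given with and without them. They held 18.3% and 0.794% of the reads of their gates. Of 7 immune markers Ptprc and Cd3e, defining genes of leukocytes, had no read in either gate, and Cd68, also made outside leukocytes, was at 22.7 CPM in the embryonic and 16.6 CPM in the luminal gate. No cell had 3 immune or 3 erythroid markers. Summed over the measured ones, globin genes were at 36.6 CPM in the embryonic and 0.0886 CPM in the luminal gate, with an Hba-a1 read in 39% of thinned embryonic and 0.926% of luminal cells; the part of such RNA in the results was not tested.

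Of 12679 genes with at least 5 CPM in either gate, 5001 (39.4%) were higher by 2-fold or more in the embryonic gate and 2225 (17.5%) lower by as much. The median log2 ratio, embryonic over luminal with 1 CPM added to both, was 0.59, with quartiles of −0.46 and 1.78. This split depends on what the totals are taken to be. Higher genes made up 69.2% of all calls, but 56.2% when scaled by TMM (the trimmed mean of log ratios), 54.7% under median-of-ratios scaling, 63.5% with a total that leaves out the 100 most abundant genes, 79.5% with spike-in reads as the total and 58.7% within plate rows F to K. Those settings moved the median of the same genes by −0.46, −0.51, −0.20, 0.47 and −0.36, so values near the median have no fixed direction. Differences of at least 8-fold were seen for 1520 genes toward embryonic and 705 toward luminal cells. Counts of higher and lower members of the gene lists below are to be read beside the shares over all genes, 39.4% and 17.5%.

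**Figure D1:**
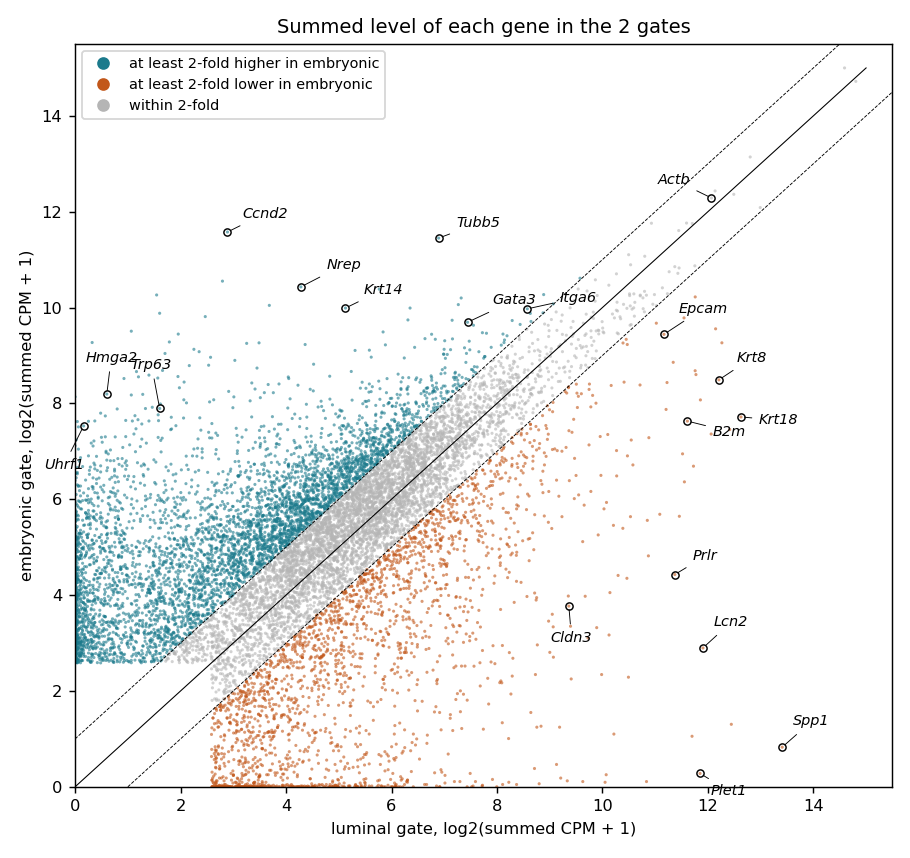
Summed level of 12679 genes in the luminal gate (x axis) and the embryonic gate (y axis), both as log2(CPM + 1); each dot is a gene, dashed lines mark 2-fold and labelled genes are named in the text. The 5001 genes above the upper dashed line spread up the left side of the plot, while the far lower right holds secreted products of luminal cells such as Spp1 and Lcn2.

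The same comparison by share of cells was narrower. After thinning, 222 genes (1.75%) had a read in at least 50 percentage points more embryonic than luminal cells and 75 (0.592%) in at least 50 points fewer. A read in at least 50% of cells of a gate was found for 2487 genes in embryonic and 1463 in luminal cells, 1138 of them in both. Near exclusive detection, at least 50% of cells in 1 gate and at most 5% in the other, was found for 92 embryonic and 33 luminal genes. The difference in level was split into share and level only for genes with a read in at least 5 thinned cells of each gate. This leaves out many near exclusive genes, such as Pthlh and Plet1. Among the genes split, the 2 directions were made up unlike. For 2655 of the 5001 genes called higher, the median log2 ratio of the share of cells with a read was 1.34. That of the level per cell with a read was 0.42. For 1271 of the 2225 genes called lower the medians were −0.87 and −1.02, and for 703 of them the level moved more than the share. At least 90% of embryonic and luminal cell pairs went in the direction of the call for 73 higher and 38 lower genes. Pairs with equal values, such as no read in both cells, were divided evenly between the directions, here and below. Such pairs can lower the share where the gates do not overlap: Penk had no luminal read, yet its share was 83.7%. These counts therefore do not measure overlap between cells.

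**Figure D2:**
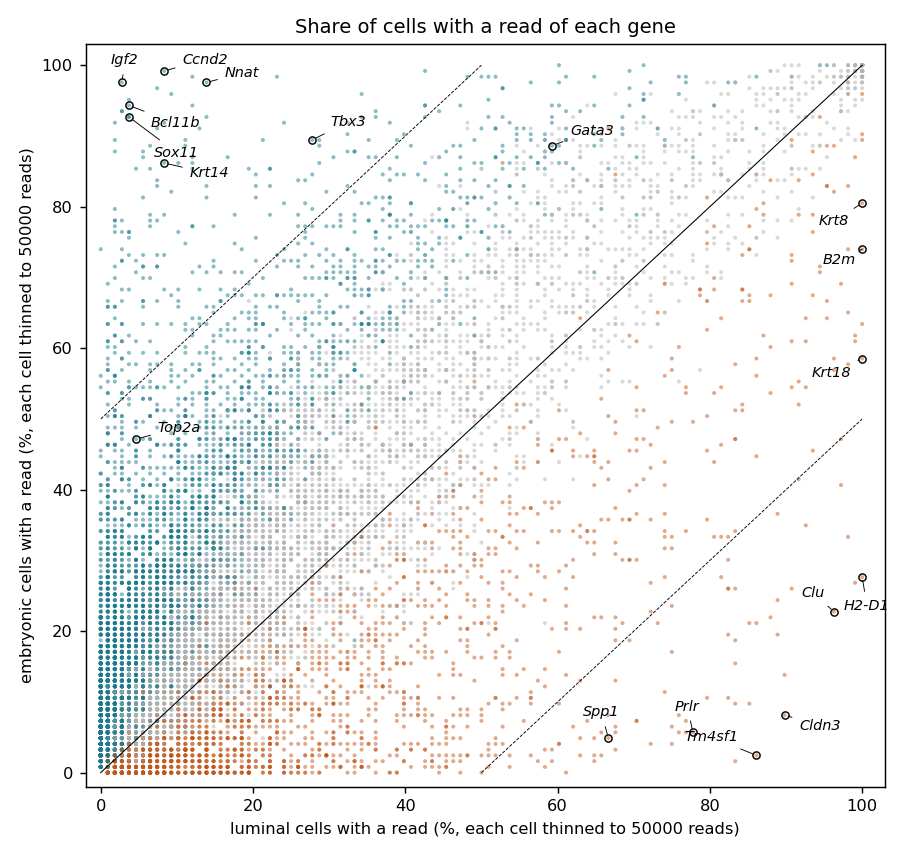
Percent of luminal cells (x axis) and embryonic cells (y axis) with a read of each gene after thinning to 50000 reads, coloured by the call on the summed level (teal higher and orange lower in the embryonic gate, grey within 2-fold). Genes beyond the dashed lines differ by at least 50 points, such as Ccnd2 at 99.2% of embryonic cells against 8.33% of luminal cells and Cldn3 at 8.13% against 89.8%.

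The genes of the sort itself describe the gates and are no finding. Lgr5, the Wnt co-receptor whose reporter was sorted, was at 550 CPM in the embryonic and 38.6 CPM in the luminal gate, with a read in 86.2% against 10.2% of thinned cells. In the luminal gate Lgr5 reads lay almost wholly in 1 of the 2 groups of cells described below, with 0.562 against 72.9 CPM, and 1 luminal cell held 61.2% of them. Without the top cell of each gate the log2 ratio of Lgr5 was 5.05 in place of 3.80. Itga6, which encodes CD49f, was 2.64-fold higher in embryonic cells. Cd24a was 1.24-fold lower and Itgb1, which encodes CD29, was at 254 against 287 CPM, both within 2-fold.

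Embryonic cells carried keratins of both layers, at unequal distance from luminal cells. All 4 measured keratins of simple epithelia were at least 2-fold lower in the embryonic gate (median log2 −5.36), whereas 6 of 7 keratins of stratified or basal epithelia were higher (median 3.41). For Krt8 the lowest, median and highest embryonic cell had 0, 195 and 4275 CPM and the luminal cells 3.56, 3484 and 15791 CPM. For Krt18, its partner in simple epithelial filaments, the values were 0, 34.5 and 4146 CPM in embryonic against 15.7, 5613 and 16391 CPM in luminal cells. The ranges of both genes overlap, but the embryonic cell was the higher in only 5.24% of cell pairs for Krt8 and 1.79% for Krt18. A single well was the highest embryonic cell for both genes, and it had no read of Krt14, Krt5, Trp63 or Sox11. The next highest embryonic cells had 4180.5 CPM of Krt8 and 1187 CPM of Krt18. Without the cells in doubt the log2 ratio was −3.64 for Krt8, in place of −3.72, and −4.94 for Krt18, in place of −4.91. Both genes had a read in every thinned luminal cell, and in 80.5% and 58.5% of embryonic cells.

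Krt14, a keratin of basal epithelial cells, had 0, 720 and 3761 CPM in the lowest, median and highest embryonic cell and 0, 0 and 2331 in luminal cells. Its partner Krt5 had an embryonic median of 155 CPM and a luminal median of 0. Krt15 was 18.7-fold and Krt17 11.5-fold higher in the embryonic gate. The exception was Krt6a, a keratin of stressed or suprabasal epithelium, at 1.11 against 101.5 CPM. Among the 4 simple keratins Krt7, a keratin of ductal epithelia, had the largest ratio, at 0.381 against 559 CPM, with 1078 CPM in the first and 93.2 CPM in the second group of luminal cells described below. Basal markers other than keratins did not all follow. Of 7 measured basal and myoepithelial markers, which include Krt5, Krt14 and Krt17, 4 were higher and 2 lower, beside 39.4% and 17.5% of all genes. Acta2 (24.5 against 69.4 CPM) and Oxtr (0.0224 against 5.88 CPM) were lower, and Mylk (7.59 against 10.4 CPM) was within 2-fold.

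Counted per cell with at least 5 reads after thinning, 85 embryonic cells (69.1%, interval 60.1% to 77.1%) had Krt5 or Krt14 together with Krt8 or Krt18. The same was seen in 6 luminal cells (5.56%, 2.07% to 11.7%), while all other luminal cells had luminal keratins without basal ones. Among embryonic cells 19 had basal keratins alone, 6 had luminal keratins alone and 13 had neither. Without the cells in doubt, an alternative chosen after the data were seen, 77 of 100 embryonic cells had both classes and 2 had neither.

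**Figure D3:**
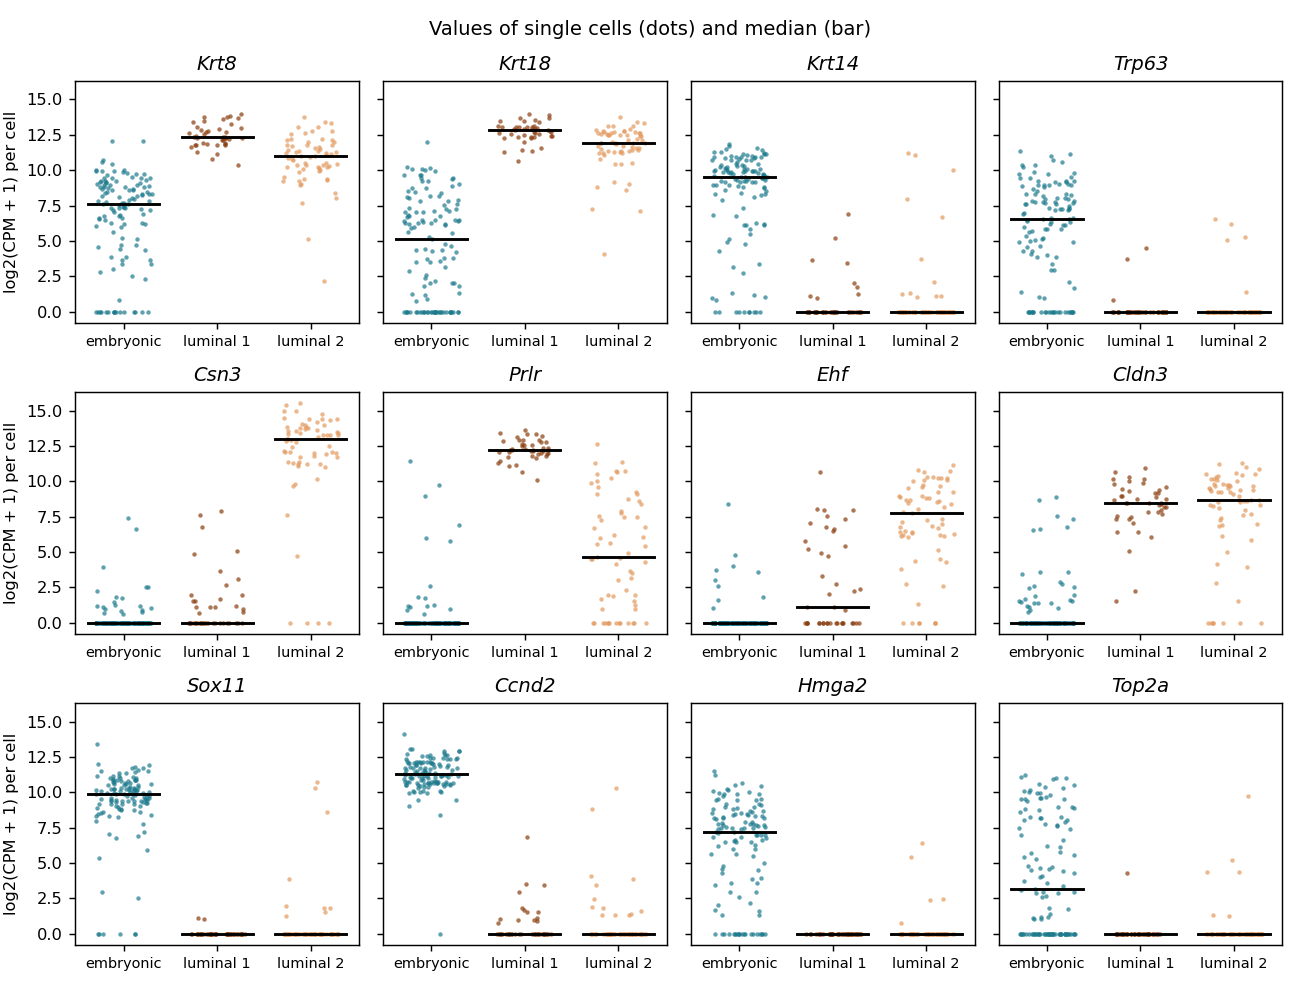
Level of 12 genes in single cells as log2(CPM + 1) per cell (y axis), for embryonic cells and the 2 groups of luminal cells (x axis, 43 cells in group 1 and 65 in group 2); dots are cells and bars are medians. Krt8 and Krt18 are detected across all 3 columns, Csn3 in luminal group 2 and Prlr mainly in luminal group 1, and Top2a is spread from 0 to 2366 CPM in embryonic cells.

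The cells of the luminal gate were not alike. Clustering of the luminal cells, with the number of groups set to 2, gave 43 cells in group 1 and 65 in group 2. Median gene reads were 859575 in group 1 and 482621 in group 2, and median detected genes 4751 and 3103. The part of this depth difference in the split was not tested. In group 1, 8 of 9 hormone-sensing markers were higher, though none was among its 10 leading genes (Sprr2a3, Tph1, Fgg, Gpx3, Il33, Fxyd2, Sprr1a, Slc44a4, Fam69a and Reg3g). In group 2 all 10 secretory markers were higher, and Spp1, Kit and Csn3 were among its 10 leading genes. The groups were defined by the expression of these cells, so their own markers are no test. Of the 2225 genes lower in the embryonic gate, 1140 were at least 2-fold lower than both luminal groups, 505 than group 1 alone and 580 than group 2 alone. Of the 5001 higher genes, 3845 were at least 2-fold higher than both groups.

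All 12 measured genes of milk proteins and the milk fat globule were lower in embryonic cells, with a median log2 ratio of −7.39. It was −9.36 when members without an embryonic read were set to 3 reads and their ratio took no added 1 CPM. Spp1 encodes osteopontin, a secreted phosphoprotein that is also a milk protein. Its lowest, median and highest cell had 0, 0 and 230 CPM in the embryonic and 0, 2143 and 57114 CPM in the luminal gate. Csn3, which encodes the casein that stabilises milk micelles, had 0, 0 and 165 CPM against 0, 2269 and 47295 CPM. These genes lay in group 2: Spp1 was at 20640 CPM there against 10.4 in group 1, Csn3 at 10562 against 18.8 and Lalba, which encodes the lactose synthase modifier alpha-lactalbumin, at 3458 against 10.8. An embryonic read of Spp1 was seen in 31 cells, but the median was 1 read in those cells.

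The 3 caseins beside Csn3 were carried by few luminal cells. Csn1s1 had a read in 22.2% of thinned luminal cells, Csn2 in 8.33% and Csn1s2a in 7.41%. A single luminal cell held 25.6% of the Csn1s1 reads, 40.4% of the Csn2 reads and 54.2% of the Csn1s2a reads. Csn2 and Csn1s2a had no read in any embryonic cell, which allows a share of cells with a read of up to 2.95%. Mfge8, a protein of the milk fat globule membrane, was the milk gene most often detected in embryonic cells, with a read in 35.8% of thinned cells against 68.5%. Levels were 50.5 CPM in embryonic cells, 37.4 in luminal group 1 and 4096 in group 2.

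Stretches before the start of milk genes are shown because STAT5, a factor activated by prolactin, is known to bind casein promoters at the letters TTCNNNGAA. RefSeq windows of 300 bases (250 before to 50 after the start, GRCm38.p6) were held for 8 of the 12 genes, and the letters, which read the same on both strands, were found in 3 of them: Csn1s1, Csn2 and Csn1s2a. Of 27025 genes with a window, 9.55% held a match, and of the 9438 measured genes with a window 8.07%. The 150 bases before the start are printed in the direction of the gene for the 3 milk genes with the highest luminal level among those with a window, and for 2 caseins chosen after their match was seen, with the match in capitals. They lie at chr5:104434961-104435110 (Spp1, + strand, the first of 2 windows), chr7:79149061-79149210 (Mfge8, − strand), chr15:98482684-98482833 (Lalba, − strand), chr5:87666058-87666207 (Csn1s1, + strand) and chr5:87699426-87699575 (Csn2, − strand).
Spp1: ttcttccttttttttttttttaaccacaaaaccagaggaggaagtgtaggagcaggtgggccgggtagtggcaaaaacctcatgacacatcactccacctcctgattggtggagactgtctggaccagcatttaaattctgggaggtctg
Mfge8: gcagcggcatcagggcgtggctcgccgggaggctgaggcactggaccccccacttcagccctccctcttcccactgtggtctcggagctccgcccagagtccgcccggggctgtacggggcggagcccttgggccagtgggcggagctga
Lalba: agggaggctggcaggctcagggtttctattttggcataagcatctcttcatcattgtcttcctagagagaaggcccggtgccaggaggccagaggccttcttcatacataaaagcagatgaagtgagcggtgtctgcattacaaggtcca
Csn1s1: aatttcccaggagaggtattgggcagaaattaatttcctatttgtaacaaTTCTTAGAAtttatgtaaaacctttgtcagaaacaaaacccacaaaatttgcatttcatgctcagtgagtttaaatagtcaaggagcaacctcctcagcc
Csn2: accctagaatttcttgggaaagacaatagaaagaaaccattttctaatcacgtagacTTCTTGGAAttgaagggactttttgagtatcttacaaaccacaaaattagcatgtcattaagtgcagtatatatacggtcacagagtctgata
A match is a run of letters, not a measured site. Spp1 and Lalba, with luminal group 2 levels over 3000 CPM, had no match in their windows.

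Secreted proteins of innate defence were lower as a group too, 16 of 16 measured (median log2 −7.30). The median was −8.17 with members without an embryonic read set to 3 reads and no 1 CPM added for them. Lcn2, which binds bacterial iron carriers, had a luminal median of 2317 CPM and a highest cell of 25355, against 0 and 832 in embryonic cells. It was at 40.9 CPM in luminal group 1 and 7248 in group 2. Trf, the iron carrier transferrin, Cp, the copper oxidase ceruloplasmin, Cxcl1, a chemokine that draws neutrophils, and Cd14, a lipopolysaccharide co-receptor, followed that order, with 11, 41.8, 90.2 and 83.8 CPM in group 1 and 2725, 2221, 2038 and 1965 in group 2. Each had a median of 0 in embryonic cells. Plet1, a surface protein, and Tm4sf1, a membrane protein of the tetraspanin-like family, stood beside them, with a read in 1.63% and 2.44% of thinned embryonic cells against 83.3% and 86.1% of luminal cells.

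Genes that move ions and water were lower in 13 of 15 measured members (median log2 −4.29). Atp6v1b1, a subunit of the vacuolar proton pump, had a read in 0.813% of thinned embryonic and 58.3% of luminal cells. Aqp5, a water channel, was at 0.303 against 418 CPM, and unlike the proton pump subunit it was in both luminal groups, at 631 and 227 CPM. Slc12a2, the sodium, potassium and chloride carrier of secretory epithelia, was at 122.4 CPM in embryonic cells, 5732 in luminal group 1 and 421 in group 2. The embryonic value rested on the cells in doubt, which held 63.1% of its reads. Aqp3, a channel for water and glycerol, had no fixed direction: its log2 ratio was 0.47, but −2.19 within plate rows F to K and −1.52 between the wells of 50 cells.

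Of 25 measured lipid genes 11 were higher and 6 lower in embryonic cells, shares near those over all genes (39.4% and 17.5%), with a median log2 of 0.85 beside 0.59 over all genes. The 2 neighbouring stearoyl-CoA desaturase genes on chromosome 19 went in opposite directions. Scd2 (chr19:44293674-44306864), the form known in brain and embryonic tissue, had a lowest, median and highest cell of 0, 810 and 4297 CPM in embryonic and 0, 0 and 1234 CPM in luminal cells. Scd1 (chr19:44394455-44407879), the form known in liver, skin and the lactating gland, was at 5.52 against 536 CPM, and at 0.137 in embryonic cells without the cells in doubt. Other members called higher, named after their values were seen, included the sterol synthesis genes Hmgcs1 (201 against 40.8 CPM) and Sqle (104.8 against 17.3 CPM) and the fatty acid synthesis genes Fasn (106.8 against 28.1 CPM) and Elovl6 (135.04 against 13 CPM). Members called lower beside Scd1 included the droplet coat gene Plin2 (58 against 331 CPM), Dgat2 (2.38 against 47.6 CPM) and Lpin1 (5.10 against 115.96 CPM).

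Receptors and effectors of the mammary hormones were lower in 7 of 10 measured members (median log2 −4.02). Prlr, the prolactin receptor, had a lowest, median and highest cell of 0, 0 and 2742 CPM in embryonic and 0, 691 and 12655 CPM in luminal cells, with 5220 CPM in luminal group 1 and 343 in group 2. The embryonic reads were in a few wells: 5.69% of thinned cells had a read, and 1 cell held 59.4% of the reads. The embryonic cell with the highest Prlr level was also the highest for Krt8 and Krt18. The log2 ratio of Prlr was −6.94, and −8.04 without its top cell in each gate. Areg, an EGF receptor ligand made in response to oestrogen, Cited1, a transcriptional co-activator of oestrogen-responsive cells, and Stc2, a secreted glycoprotein, were also lower in luminal group 2, at 72.9, 33.7 and 12.5 CPM against 1642, 1383 and 564 in group 1. Foxa1, the pioneer factor of oestrogen receptor sites, was at 0.0785 against 156 CPM.

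Members of this list differed widely in size of ratio. Esr1, the oestrogen receptor, was at 110 against 233 CPM and had a read in 59.3% of thinned embryonic and 49.1% of luminal cells. Wnt4, a progesterone-responsive Wnt ligand, was within 2-fold, with a log2 ratio of 0.35 that turned to −0.86 within plate rows F to K and −0.84 between the wells of 50 cells. Greb1, an oestrogen target elsewhere, was the 1 member called higher, at 29.2 against 4.22 CPM. Pgr, the progesterone receptor, was at 15.2 against 81.9 CPM.

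Transcription factors followed the same lines. Of 20 measured luminal factors 15 were lower and 2 higher (median log2 −2.11). Ehf, an ETS factor of secretory epithelia, was at 3.51 against 265 CPM, Elf3 at 4.73 against 167 CPM and Elf5, the ETS factor of alveolar cells, at 6.94 against 82.8 CPM. Cebpd, an inflammatory and mammary C/EBP factor, was 78.8-fold and Runx1 3.83-fold lower. Sox9 differed by 2.07-fold, and Grhl2 and Tfap2c by less than 2-fold. Gata3, required for luminal fate in the adult, went against its list, with a lowest, median and highest cell of 0, 729 and 5314 CPM in embryonic and 0, 32.2 and 2478 CPM in luminal cells. Embryonic cells were the higher in 82.3% of pairs, with pairs of equal values divided evenly. Ovol2 was also higher, at 9.95 against 0.133 CPM, with no read in either well of 50 cells.

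Of 17 basal factors 11 were higher and 2 lower (median log2 3.44). Trp63, the p53 relative that defines basal and stratified epithelium, had a read in 70.7% of thinned embryonic cells and 4.63% of luminal cells. Bcl11b, a zinc finger factor of basal mammary and embryonic skin cells, was in 94.3% against 3.70% of cells, with an embryonic median of 297 CPM. In luminal groups 1 and 2 Trp63 was at 1.03 and 2.94 CPM and Bcl11b at 2.31 and 2.02 CPM. Nfib was at 839 against 595 CPM and was detected in 100% against 96.3% of cells. The mesenchymal factors of this list were set by the cells in doubt. These held 96.2% of embryonic Zeb1 reads, 87.4% of Twist1 and 87.8% of Twist2 reads. Twist2 is among the markers by which those cells were chosen, so its share follows from the choice. Without the cells in doubt Zeb1 was at 0.851 against 0.997 CPM. Snai2 was not set by them, with 43.2 against 0.812 CPM and 38.1 against 0.819 CPM without them.

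Among 22 embryonic and bud factors 18 were higher and 2 lower (median log2 3.06). Sox11, a SoxC factor of embryonic progenitors, had a lowest, median and highest cell of 0, 968 and 10812 CPM in embryonic and 0, 0 and 1716 CPM in luminal cells. The 2 luminal cells in doubt held 53.7% of the luminal Sox11 reads, and without the cells in doubt 99% of embryonic and 1.89% of luminal cells had a read. Sox4, of the same SoxC group, was at 167 against 136.3 CPM, within 2-fold. Tbx3, required for the mammary placode, was in 89.4% against 27.8% of thinned cells, Lef1, the nuclear partner of beta-catenin in the bud, in 79.7% against 1.85%, and Bcl11a at 156 against 7.97 CPM. Tfap2b was 2.70-fold higher. Of the Hox genes, Hoxc8 was at 35.1 against 0.0295 CPM. Foxc1 (0.897 against 28.3 CPM) and Msx2 (2.94 against 7.78 CPM) went the other way.

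RNA-binding and chromatin proteins of fetal cells were higher in 19 of 22 measured members, with none lower (median log2 3.37). Hmga2, an architectural protein of embryonic chromatin, had a median of 150 CPM and a highest cell of 2892 in embryonic cells against 0 and 85.2 in luminal cells. Igf2bp1 and Igf2bp3, RNA-binding proteins of fetal tissue, had a read in 71.5% and 55.3% of thinned embryonic cells and 1.85% and 0.926% of luminal cells. Uhrf1, which brings the maintenance methyltransferase to replicated DNA, was in 66.7% against 0.926%. Dnmt1, that methyltransferase, differed far less, at 183 against 62.1 CPM, and the de novo enzyme gene Dnmt3a was at 499 against 48 CPM. Ezh2, the methyltransferase of Polycomb complex PRC2, was 10.8-fold higher, while the other 2 measured PRC2 genes, Eed and Suz12, were within 2-fold.

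All 15 measured imprinted genes and genes of fetal growth were higher (median log2 5.61). Igf2, the fetal insulin-like growth factor (chr7:142650766-142666816), had a lowest, median and highest cell of 0, 377 and 7269 CPM in embryonic and 0, 0 and 274 CPM in luminal cells. Its imprinted neighbour H19 (chr7:142575529-142578143) had 0, 483 and 9062 CPM against 0, 0 and 694 CPM. Cdkn1c, an imprinted inhibitor of the cell cycle, was in 95.1% against 3.70% of thinned cells, and Nnat, a small membrane protein, in 97.6% against 13.9%. Grb10, a growth factor receptor adaptor, was at 450 against 22 CPM.

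The cells in doubt were rich in several of these. They held 55.8% of embryonic Igf2 reads, 48.3% of H19, 55.6% of Peg3, 71.3% of Meg3 and 90% of Dlk1 reads, beside 18.3% of all reads. The median of Igf2 was 1417 CPM in those 23 cells and 327 CPM in the other 100. Without them 14 of 15 members were still called higher (median log2 5.37), and 98% of embryonic cells had an Igf2 read.

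**Figure D4:**
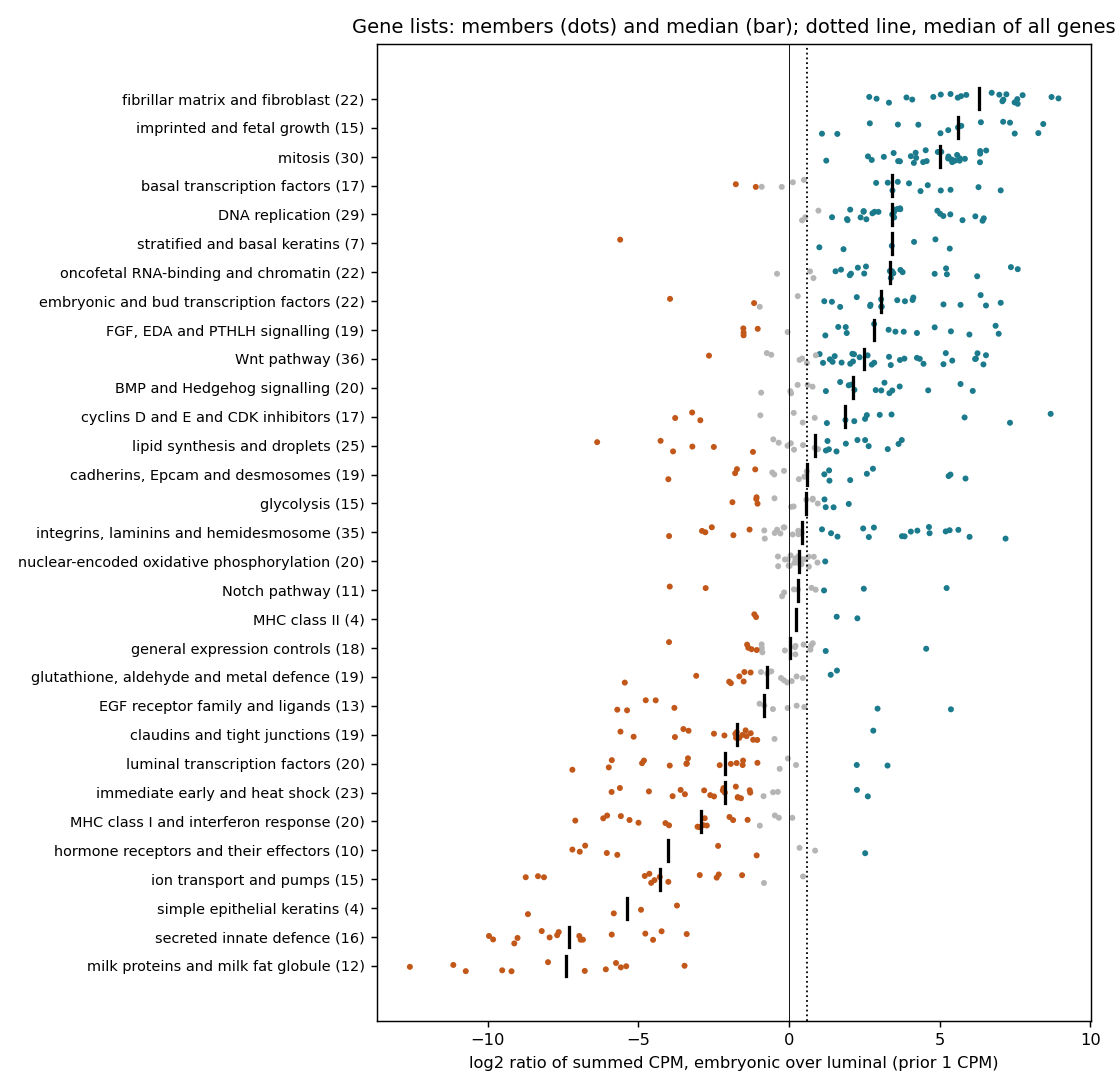
Log2 ratio of summed CPM, embryonic over luminal (x axis), for the measured members of 31 gene lists (y axis, number of members in brackets); dots are genes, black bars list medians and the dotted line the median of all genes, 0.59. Medians run from −7.39 for milk genes to 6.31 for fibrillar matrix genes, and the medians of the controls, oxidative phosphorylation and glycolysis lie between 0.03 and 0.58.

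Genes of chromosome segregation were higher in embryonic cells in all 30 measured members of a mitosis list (median log2 5.00). Top2a, the topoisomerase that untangles replicated DNA, had a median of 7.88 and a highest cell of 2366 CPM in embryonic cells, against 0 and 858 CPM in luminal cells. Mki67, the proliferation marker that coats mitotic chromosomes, had medians of 0 in both gates and highest cells of 1635 and 402 CPM. Most of the embryonic level therefore came from a part of the cells: 39.8% of thinned cells had a Mki67 read against 1.85% of luminal cells. At least 3 mitosis genes with 5 reads each were found in 50 embryonic cells (40.7%, interval 31.9% to 49.9%) and 2 luminal cells (1.85%, 0.225% to 6.53%). Without the cells in doubt these were 41 of 100 embryonic cells and 1 luminal cell. The 2 luminal cells in doubt held 86.8% of luminal Mki67 and 70.9% of luminal Top2a reads.

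DNA replication genes were higher in 26 of 29 measured members, none lower (median log2 3.43). At least 3 of them were found in 66.7% of embryonic cells (57.6% to 74.9%) and 15.7% of luminal cells (9.45% to 24.0%). Rrm2, the ribonucleotide reductase subunit made in S phase, was at 216 against 1.98 CPM and its partner Rrm1 at 232 against 31.5 CPM. Tyms, which makes thymidylate, was 157-fold higher. Pcna, the sliding clamp that also serves repair, was within 2-fold, at 250 against 171 CPM and with a read in 61.8% against 54.6% of cells.

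In the list of D and E cyclins and CDK inhibitors 10 of 17 measured members were higher and 3 lower (median log2 1.87), beside 39.4% and 17.5% of all genes. Ccnd2, a D-type cyclin (ENSMUSG00000000184.12, chr6:127125162-127152193), had a lowest, median and highest cell of 0, 2503 and 18308 CPM in embryonic and 0, 0 and 1265 CPM in luminal cells, and embryonic cells were the higher in 99.4% of pairs. The 2 luminal cells in doubt held 86.2% of its luminal reads, and it was at 0.893 CPM in the others. Ccnd1 was at 316 against 54 CPM, Ccnd3 at 194 against 80.6 CPM and their kinase gene Cdk4 at 851 against 141 CPM. Cdkn1a, the p21 inhibitor of the p53 response, was 13.9-fold lower, with a read in 24.4% of thinned embryonic and 88.9% of luminal cells. Rb1, the retinoblastoma protein, was at 30.3 against 239 CPM and its relative Rbl1 at 48 against 5.07 CPM.

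Promoters of mitosis genes are known to pair CCAAT boxes with the element TTTGAA, called CHR, and those of replication genes to carry E2F sites, searched here as TTTGGCGC or TTTCCCGC. Both strands were searched in the 300-base RefSeq windows, and a TTTGAA match on the other strand can lie within a match of the STAT5 letters. Of 25 mitosis genes with a window 20 (80%) held TTTGAA and 21 (84%) CCAAT, against 20.2% and 41.1% of all 27025 genes. An E2F match was in 1 of them. Of 24 replication genes 9 (37.5%) held an E2F match, against 1.8% of all genes, 15 (62.5%) held CCAAT and 2 (8.33%) held TTTGAA. The lists were chosen for function and not for sequence, and the shares are a description. The 3 mitosis genes with the highest embryonic level and a window are printed, 150 bases before the start in the direction of the gene, with TTTGAA and CCAAT on either strand in capitals. They lie at chr4:52439071-52439220 (Smc2, + strand), chr11:99024190-99024339 (Top2a, − strand) and chr7:135716380-135716529 (Mki67, − strand).
Smc2: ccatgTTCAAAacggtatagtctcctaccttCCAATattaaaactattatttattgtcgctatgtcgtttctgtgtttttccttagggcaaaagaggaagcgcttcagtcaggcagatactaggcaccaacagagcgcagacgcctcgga
Top2a: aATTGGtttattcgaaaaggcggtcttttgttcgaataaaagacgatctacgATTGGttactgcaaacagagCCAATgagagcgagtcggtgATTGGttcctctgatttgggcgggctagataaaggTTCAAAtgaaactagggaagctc
Mki67: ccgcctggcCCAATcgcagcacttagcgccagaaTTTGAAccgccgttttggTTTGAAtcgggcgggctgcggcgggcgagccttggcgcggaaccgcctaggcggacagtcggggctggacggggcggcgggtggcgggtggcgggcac
In the luminal gate these genes were at 13.6, 2.94 and 1.12 CPM, and in the embryonic gate at 338, 320 and 197 CPM.

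Of 36 measured Wnt genes 29 were higher and 1 lower in embryonic cells (median log2 2.48). Lgr5, whose reporter set the embryonic gate, is itself a Wnt target, and the part of the sort in this difference was not tested. Among ligands Wnt6 was in 76.4% against 3.70% and Wnt3 in 56.1% against 1.85% of thinned cells, while Wnt10a had no luminal read and 35.9 CPM in embryonic cells. Wnt5b went against the list, at 9.54 against 65.4 CPM, most of it in luminal group 2 (113.7 CPM). Among receptors Lrp6 and Lrp5 were within 2-fold, and frizzleds ranged from Fzd6 (58.2 against 42.6 CPM) to Fzd2 (62.4 against 2.33 CPM). Some members are known as feedback genes that Wnt signalling switches on. Of these Znrf3, a ligase that clears frizzled receptors, had a lowest, median and highest cell of 0, 230 and 1720 CPM against 0, 0 and 940 CPM. Axin2 was at 47.4 against 0.384 CPM, Nkd1 at 101.7 against 0.103 CPM and Apcdd1 at 77.8 against 0.0295 CPM. Kremen2, a receptor of the inhibitor Dkk1, was 288-fold higher, and the 2 luminal cells in doubt held 96.6% of its luminal reads. Without the cells in doubt 23 of 31 measured members were higher, and Dkk2, Rspo1 and Wif1 were at 2.03 CPM or less in embryonic cells.

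Signals of placode growth were higher in 14 of 19 measured members of an FGF, ectodysplasin and PTHLH list, and 4 were lower (median log2 2.83). Pthlh, the epithelial signal to the mammary mesenchyme, had a median of 195 and a highest cell of 1920 CPM in embryonic cells, and 0 and 639 CPM in luminal cells. Edaradd, the adaptor of the ectodysplasin receptor, was at 148 against 0.281 CPM, the receptor gene Edar at 52 against 1.79 CPM and its ligand gene Eda at 12.3 against 0.148 CPM. Fgfr2, the epithelial FGF receptor, was 2.31-fold higher and was shared with luminal group 1 (683 CPM, against 43.2 in group 2). Fgfr1 and the FGF feedback phosphatase gene Dusp6 were 2.85-fold and 2.86-fold lower.

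In the BMP and Hedgehog list 14 of 20 measured members were higher and none lower (median log2 2.13). Id3, an inhibitor of helix-loop-helix factors and a BMP target, was 10.9-fold and Id2 4.0-fold higher, Bmp7 was at 140 against 1.05 CPM and Bmp4 at 27.3 against 0.148 CPM. The receptors Bmpr1a and Bmpr2 were within 2-fold. Notch genes gave no common direction, with 3 of 11 higher and 2 lower, beside 39.4% and 17.5% of all genes. Their median log2 was 0.30, and −0.17 under TMM scaling. Notch1 and Notch2 were within 2-fold, Jag2, a ligand, was at 51.7 against 0.399 CPM, Hes1, a target, was 5.67-fold higher, and Hey1, another target, was at 10.1 CPM against 0.187 in luminal group 1 and 325 in group 2. The EGF family had 2 of 13 higher and 5 lower, with a median log2 of −0.82, beside 39.4% higher and 17.5% lower of all genes. Erbb2, Erbb3 and Egfr were within 2-fold, but the ligand genes Areg and Hbegf (14.8 against 653 CPM) and the feedback inhibitor gene Errfi1 (42.9 against 1182 CPM) were lower.

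Tight junction genes were lower in 17 of 19 measured members (median log2 −1.73). Cldn3 had a lowest, median and highest cell of 0, 0 and 476 CPM in embryonic and 0, 406 and 2463 CPM in luminal cells, and was at 606 and 704 CPM in the 2 luminal groups. Its highest embryonic cell was also the highest for Krt8 and Krt18. Cldn4 was 10.1-fold and Cldn7 3.15-fold lower, and the scaffold gene Tjp1 was at 44.5 against 102.6 CPM. Cldn6, a claudin of embryonic epithelia, was the exception, 7.10-fold higher and in 65.9% against 20.4% of thinned cells. At adherens junctions and desmosomes 9 of 19 genes were higher and 4 lower, with a median log2 of 0.59, as over all genes, where 39.4% were higher and 17.5% lower. Epcam and Cdh1, E-cadherin, were 3.31-fold and 3.46-fold lower, whereas Cdh3, P-cadherin, was at 136.1 against 1.36 CPM and Dsc3, a desmocollin of stratified epithelium, at 65.8 against 0.694 CPM. Ctnnb1, beta-catenin, was 2.52-fold and Perp 4.12-fold higher.

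Contacts with the basement membrane gave 17 of 35 genes higher and 6 lower (median log2 0.42, and −0.05 under TMM scaling), beside 39.4% and 17.5% of all genes. Fras1, a basement membrane protein of the embryonic skin, had an embryonic median of 309 CPM and a luminal median of 0, and its partner Frem2 was at 95.7 against 0.517 CPM. Col17a1 and Col7a1, collagens of epidermal anchoring, were at 184 against 2.76 CPM and 75.6 against 1.08 CPM. The hemidesmosome genes Itgb4 and Plec were within 2-fold. Itgb3, Itgb6, Itgb8 and Itgav, which encode integrin chains, and Dst, a cytoskeletal linker, were lower, with Itgav at 82.2 against 298 CPM and Dst at 54.1 against 376 CPM.

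Fibrillar matrix and fibroblast genes were higher in 22 of 22 measured members (median log2 6.31), the highest median of all lists, and this group depended most on the cells in doubt. Those 23 cells were chosen in part by Col1a1, Col1a2, Col3a1, Dcn, Lum, Postn, Pdgfra and Twist2. High shares of the reads of these genes therefore follow from the choice. The cells held 96.8%, 95.8% and 95.4% of the embryonic reads of Col1a1, Col1a2 and Col3a1. They also held 93.3% of Lum reads and 97.2% of reads of Pdgfra, the gene of the excluded CD140a. Their median Krt14 was 1.44 CPM and Krt8 4.75 CPM, against 799 and 235 CPM in the other 100 embryonic cells. Col1a2 had a median of 3902 CPM in them and 20.1 in the others. Without them 17 members were measured and 16 were higher (median log2 3.65). Col1a1 was then at 23.9 against 0.179 CPM, and Dcn at 27.9 against 41.8 CPM. Fn1, fibronectin, and Mfap2, a microfibril protein, did not follow the collagens: the cells in doubt held 24.0% and 26.2% of their embryonic reads, and in the other 100 cells 91% and 93% had a read. Their luminal reads were mostly (94.9% and 91.8%) in the 2 luminal cells in doubt.

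Most transcripts of antigen presentation by MHC class I were lower in embryonic cells. Of 20 measured genes of class I and the interferon response 16 were lower and none higher (median log2 −2.91). B2m, the shared light chain, had a lowest, median and highest cell of 0, 94.9 and 2755 CPM in embryonic and 67, 2834 and 10557 CPM in luminal cells. The heavy chain gene H2-D1 had 0, 0 and 1245 CPM against 91.2, 1765 and 5354 CPM, and embryonic cells were the higher in 0.723% of pairs. H2-K1 was in 26.8% against 99.1% of thinned cells. Peptide-processing genes of the class II region on chromosome 17 were lower too, with Psmb8 (chr17:34197721-34201454) at 1.93 against 399 CPM, Psmb9 at 0.280 against 60.2 CPM and Tap2 at 0.101 against 78 CPM, and Tap1 at 7.68 against 56.4 CPM. Ifitm2 and Ifitm3, interferon-induced membrane proteins, were within 2-fold. MHC class II genes were at most 14.5 CPM in either gate.

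Immediate early and heat shock genes, which tissue dissociation is known to induce, were lower in 18 of 23 measured members (median log2 −2.13). Atf3 had medians of 0 in embryonic and 999 CPM in luminal cells, Fosb 18.4 and 868 CPM, and Fos 267 and 777 CPM. Ier3 was at 20.3 against 1257 CPM. Egr2 and Hsph1 were higher, 4.97-fold and 6.6-fold, but Hsph1 was lower in the embryonic well of 50 cells (log2 −0.95). The adult cells met the longer digestion, and this cannot be told apart from age. In the glutathione, aldehyde and metal list 8 of 19 genes were lower and 2 higher, with Gpx3 at 11.1 against 529 CPM and Mt1 at 286 against 899 CPM.

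Some abundant genes had nearly the same level. Within 0.32 on the log2 scale lay 1865 genes, or 14.7% of those measured. Hsp90ab1 was at 3118 against 2790 CPM, Actb, cytoplasmic actin, at 4996 against 4291 CPM and Prdx1, a peroxiredoxin, at 1105 against 1240 CPM. Over all genes 39.4% were higher and 17.5% lower. Of 20 nuclear genes of oxidative phosphorylation 1 was higher and none lower (median log2 0.32), and of 15 glycolysis genes 4 were higher and 4 lower (median 0.58). Under spike-in scaling these became 6 higher of 20, and 8 higher and 1 lower of 15, while the median turned negative under median-of-ratios scaling for oxidative phosphorylation (−0.20) and within plate rows F to K for glycolysis (−0.23). Common reference genes were not all equal: Gapdh was 2.33-fold higher, Eef1a1 1.87-fold lower and Tubb5, a tubulin, at 2796 against 117.9 CPM.

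The wells of 50 cells, 1 per gate, are a second library of each gate and were not used in the sums. Of 3814 genes called higher and measured there, 2872 were at least 2-fold higher as well and 215 (5.64%) were lower by as much. Of 1629 called lower, 1206 were lower there and 7.12% higher. In a well of 50 cells, fewer cells with a transcript and less of it per cell cannot be told apart. Krt8 was at 244 CPM in the embryonic and 5394 CPM in the luminal well, Krt14 at 659 and 0, Spp1 at 0 and 29772, Sox11 at 1098 and 0, Top2a at 243 and 0, and Col1a2 at 3311 and 0.

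**Figure D5:**
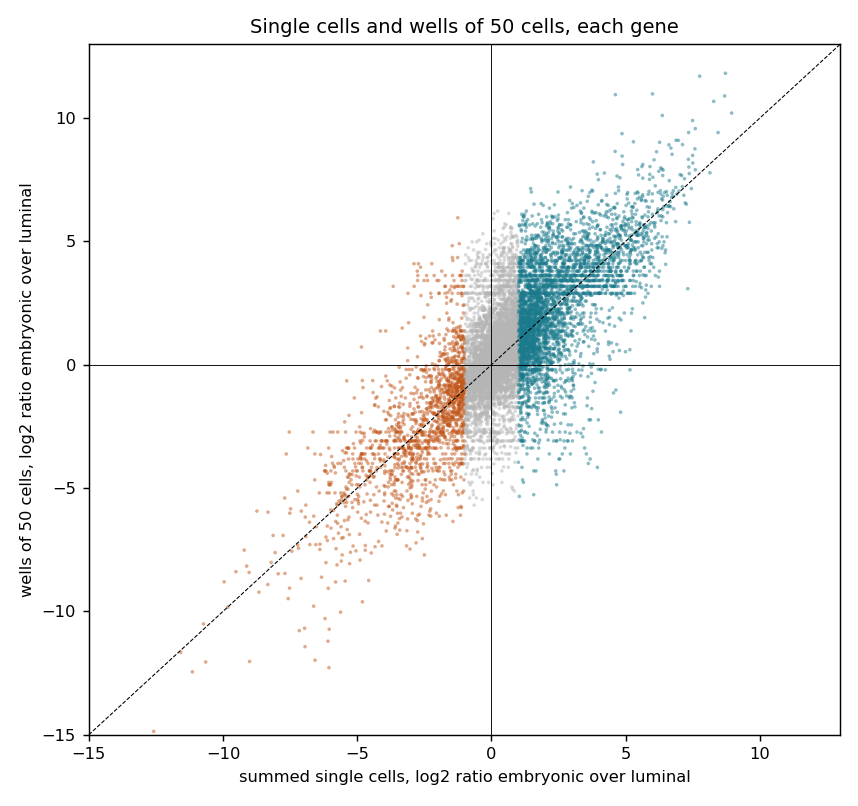
Log2 ratio of CPM, embryonic over luminal, in the summed single cells (x axis) and between the 2 wells of 50 cells (y axis), for genes with at least 5 CPM in either well; colours show the call in single cells and the dashed line equal ratios. Of 3814 teal genes 2872 lie at 1 or above on the y axis, and of 1629 orange genes 1206 lie at −1 or below.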

How the data were processed

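Single cells were sorted into 1 plate of 384 wells and sequenced as Smart-seq2 libraries (oligo-dT priming, ERCC spike-ins, Nextera XT), per the labels' protocols. The authors deposited read counts per gene and well, 1 table of 49585 identifiers and 92 spike-ins. The submitters' processing notes name cutadapt 1.13, STAR 2.5.2b, HTSeq 0.6.0 and GRCm38. Options, annotation and strand setting: not given in the sources used here. Overlapping, antisense or near-identical genes may therefore share reads.

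Symbols and coordinates came from GENCODE M21 (49326 identifiers matched, 5577 without the version, 259 not). Spike-ins were left out of gene totals. Wells were left out under the 3 limits in the report (14 embryonic, 13 luminal). No doublet caller was run. Wells without a cell held 34 to 563 reads.

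The level of a gene was its reads summed over kept cells per 1000000 summed gene reads (CPM), with an exact Poisson interval. Folds carry exact conditional intervals in the tables. Log2 ratios add 1 CPM. Genes were measured at 5 CPM in either gate and called at 2-fold. Against a gate without a read, folds and the second list medians use 3 reads as the floor, without the added 1 CPM. Shares of cells with a read were counted after thinning each cell to 50000 reads, with Clopper-Pearson 95% intervals, and called at 50 points. Luminal cells were split by Ward clustering. Scripts were tested on simulated data (Python 3.11.15, edgeR 4.0.16 for TMM).

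The members and the 31 gene lists and 14 marker lists were chosen with earlier results of these data known. Named genes were, per direction, the 15 largest log2 ratios (at least 50 CPM and a read in 50% of cells in the higher gate, no cell over 20% of its reads, 2-fold in the wells of 50 cells), the 15 largest differences in share, the 10 most abundant within 0.32 on the log2 scale, and per list the 4 most abundant members and, where 3 or fewer, those against its median, with 12 genes always named. Spike-ins, ribosomal, mitochondrial and unnamed predicted genes stayed out of the rankings. Other list members, and genes of the marker lists, were named after their values were seen. The rule for cells in doubt was known from earlier results, and its use on keratin classes, list members per cell and shares of reads was added after seeing the data. Alternatives covered scaling, totals, prior, minimum level, cell filters, thinning, detection, plate rows, cells left out and the wells of 50 cells.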

Additional observations from a re-analysis of the deposited data

Results flagged for a closer look

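A well titled as a single cell of 1 gate carried the sort label of another, so it was placed in no group and entered no comparison. It held 774060 gene reads, far above the 34 to 563 reads of the wells without a cell, and that difference is why it is listed here. It had 4031 genes with a read, and 5.51% of its reads were mitochondrial. Its gate was not inferred from these values.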

How the results depend on the processing

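Each gate is 1 sample, so no value has a replicate check, and counting intervals understate the error. No paired analysis was possible because wells share only numbers given in accession order and no result comes from a test. Of the counts recomputed under the alternatives, 51 stayed within 1.5 times the reported count and 3 did not. These were the genes at least 2-fold lower in embryonic cells, 1471 with a minimum of 20 CPM in place of 5, and the genes with at least 50 points more embryonic cells, 97 when 5 reads were needed for detection and 347 without thinning. For these minimum levels and detection rules, fewer or more genes can pass by construction. Of the recomputed values of named genes, 2262 differed little from the reported one, 374 moved and 4 changed direction or came to 0. Cd74 had a log2 ratio of −1.62 within plate rows F to K, where 15 embryonic cells remained. Between the wells of 50 cells Hsph1 was at −0.95, and Ovol2 and H2-Ab1 were at 0, with no read in either well. The cause of these changes was not tested. Among all called genes 319 reversed within rows F to K and 465 between the wells of 50 cells. Medians of the Notch, integrin, MHC class II, glycolysis, oxidative phosphorylation and control lists change sign under at least 1 setting, so no direction is given for them. Depth limits the low genes most: with 50000 reads per cell after thinning, a transcript seen as single reads cannot be told from absence in most cells.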
